A study of Mus musculus with 15 samples.

Results

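The genes described here are 10 regulators of the G1 phase of the cell cycle and of entry into S phase: the D-type cyclin genes Ccnd1, Ccnd2 and Ccnd3, the E-type cyclin genes Ccne1 and Ccne2, the kinase genes Cdk2, Cdk4 and Cdk6, the transcription factor gene E2f1 and the retinoblastoma gene Rb1. They were taken by symbol from a table of 56979 mouse Ensembl gene identifiers, in which each of the 10 matched a single identifier. The table came from RNA sequencing of polyadenylated RNA in 15 libraries of wild type mouse bone marrow cells, with 3 libraries in each of 5 groups. Levels are in TPM, a share of the library's transcripts that corrects for gene length and scales each library to the same total, so that levels of different genes can be compared but the sequencing depth is unknown. Bone marrow-derived macrophages (BMDM) made up 9 libraries, labelled LPS_NZM (treatment LPS+NZM), LPS (treatment LPS) and Control (treatment Vehicle). LPS, lipopolysaccharide, comes from the cell wall of gram-negative bacteria and is a standard activator of macrophages. The remaining 6 libraries were of cells labelled BMSC and comprised Aged_NZM (treatment H2HO+NZM) and Aged (treatment H2HO). The labels place NZM after the pretreatment with LPS or H2HO, explain neither NZM nor H2HO, and give no age of animals, no doses and no times. BMDM given NZM alone were not analysed here, nor were BMSC that had not received H2HO.

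In G1, D-type cyclins bind the kinases CDK4 and CDK6, and these complexes begin the phosphorylation of the retinoblastoma protein, which in its unphosphorylated form holds E2F transcription factors in check. Released E2F factors switch on genes for DNA synthesis and for the E-type cyclins, which bind CDK2 and complete the phosphorylation. Cultured bone marrow macrophages divide in response to CSF1, which induces Ccnd1, and LPS is known to stop this division. RNA levels report neither the amount of these proteins nor the activity of the kinases.

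Between 21360 and 23398 identifiers were above 0 TPM in a library. The labels were checked against marker genes. All 10 macrophage markers averaged at least 1 TPM in each BMDM group, whereas in both BMSC groups 5 of them did and the defining markers Ptprc, Itgam, Adgre1 and C1qa averaged under 0.1 TPM. The 10 markers summed to 107 to 120 TPM in Aged_NZM and 121 to 130 TPM in Aged, mostly Cd14, at 93.7 TPM in Aged_NZM and 94.2 TPM in Aged, and Cd68, at 13.0 and 24.9 TPM. They summed to at least 23592 TPM in every BMDM library. Stromal genes were present in BMSC, with summed levels of the 12 stromal markers from 4313 to 4401 TPM in Aged_NZM and from 1501 to 1568 TPM in Aged, although Lepr stayed under 1 TPM and Eng and Nt5e under 4 TPM. The BMDM libraries were not pure macrophages, since the same 12 markers summed to 2559 to 2665 TPM in LPS_NZM, 2668 to 2845 TPM in LPS and 3088 to 3262 TPM in Control. The Aged libraries lay below every BMDM library in this sum, so it does not set the cell types apart. Markers of neutrophils and their precursors also summed to 1934 to 2323, 2221 to 2444 and 1488 to 1682 TPM in LPS_NZM, LPS and Control. The 6 mast cell and basophil markers summed to 10.6 TPM in Control replicate 1 and to 518 TPM in Control replicate 2. They summed to 118 to 205 TPM in LPS_NZM and 140 to 171 TPM in LPS. Without Control replicate 1 as many of the 10 genes were called in each BMDM comparison as with it. Without Control replicate 2 the calls of Ccnd2 and Cdk6 were lost in LPS_NZM against Control (adjusted p = 0.0559 and 0.0937). Il1b, a gene that LPS induces, stood at 2.77, 0.94 and 33.94 TPM in the Control libraries, so that Control replicate 3 lay above the others. Without it 9 of the 10 genes were called in LPS against Control, as with it, and 7 in place of 8 in LPS_NZM against Control. A change in these bulk libraries therefore cannot be assigned to macrophages alone, fewer cells of a type and less RNA per cell cannot be told apart, and the part of the other cells in the results was not tested.

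In BMDM, 7 of the 10 genes fell and Ccnd2 and Ccnd3 rose in LPS against Control. In LPS_NZM against LPS, which shares the LPS libraries with that comparison, 7 rose and 2 fell. In BMSC, NZM went with a fall of 9 of the 10 genes and a rise of Ccnd3. The NZM changes thus ran in opposite directions in the 2 cell types for Ccnd1, Cdk4, Cdk6, Ccne2, Cdk2, E2f1, Rb1 and Ccnd3, and in the same direction for Ccnd2. Differences were tested with limma on log2(TPM + 1), with p-values adjusted by the Benjamini-Hochberg method over all tested genes and a call at an adjusted p under 0.05. All 10 genes reached the filter of 1 TPM in at least 3 libraries, and each stayed above 1 TPM in all 15 libraries, with a lowest value of 2.46 TPM for Ccne2 in LPS. The background was high, since 80.8% of 14486 tested genes were called in LPS against Control (15.2% higher, 65.6% lower) and 77.3% in LPS_NZM against LPS (60.4% higher, 16.9% lower). In Aged_NZM against Aged 70.5% of 13865 tested genes were called (21.6% higher, 48.9% lower). The counts of 9, 9 and 10 called genes out of 10 are therefore to be read against these shares, and the sizes of the changes carry more than the calls.

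**Figure D1:**
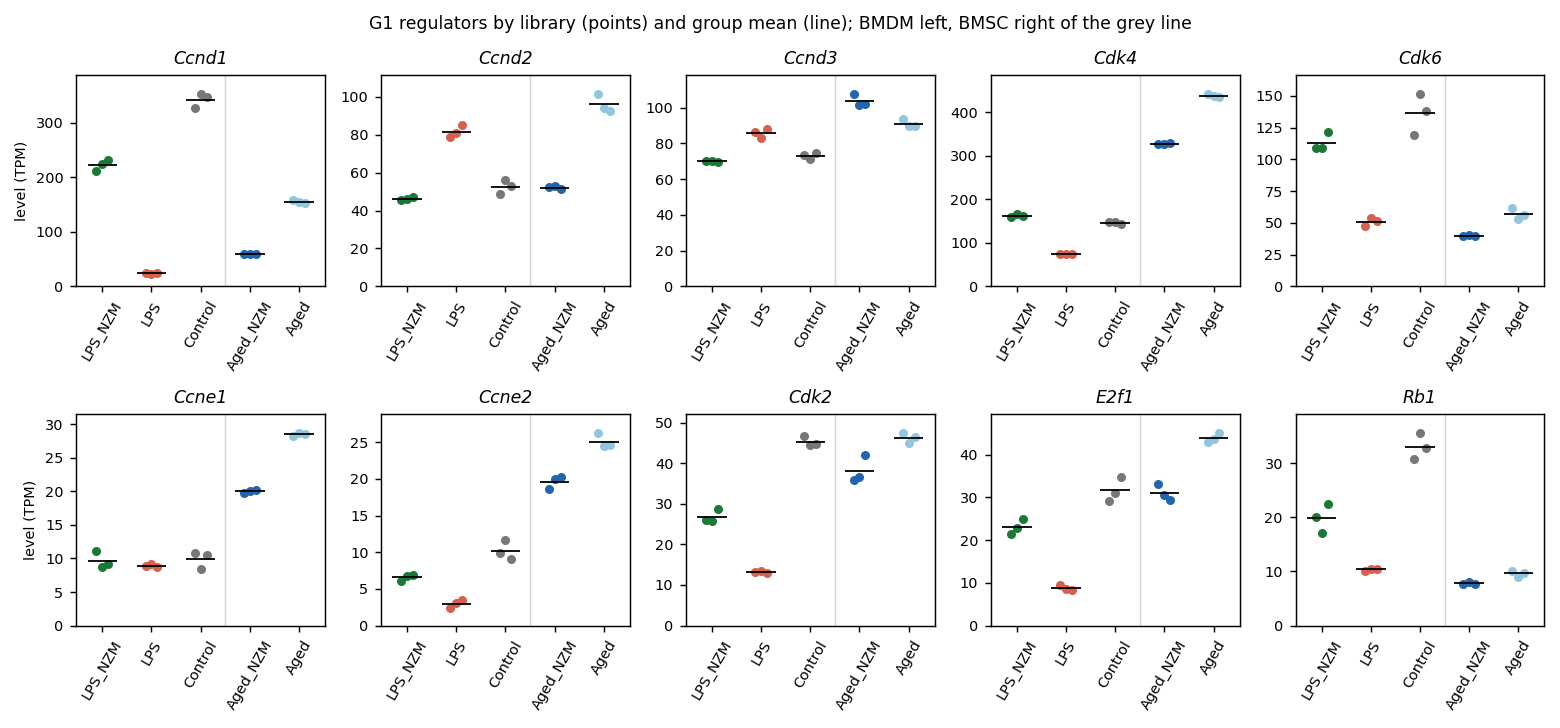
Level of each of the 10 genes in TPM (vertical axis, linear, from 0) in the 15 libraries, as points with the mean of each group as a line. BMDM groups stand left of the grey line and BMSC groups right of it. For Ccnd1 the 3 LPS libraries lie between 22.2 and 24.5 TPM, below those of the other 4 groups.

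A shift of the TPM scale touches these results. The median log2 change over all tested genes was -0.48 in LPS against Control, 0.40 in LPS_NZM against LPS, -0.07 in LPS_NZM against Control and -0.18 in Aged_NZM against Aged. After every library was centred on the median of its tested genes, rises made up 55.7% of the calls in LPS against Control instead of 18.8%, 45.7% instead of 78.2% in LPS_NZM against LPS, 53.1% instead of 39.0% in LPS_NZM against Control, and 46.8% instead of 30.7% in Aged_NZM against Aged. Of the 10 genes, 3 were then higher and 7 lower in LPS against Control, 7 higher and 3 lower in LPS_NZM against LPS, 1 higher and 5 lower in LPS_NZM against Control, and 1 higher and 7 lower in Aged_NZM against Aged. The gene added to the calls in the first 2 comparisons was Ccne1. The calls lost in Aged_NZM against Aged were those of Cdk2 and Rb1. Of 14486 tested genes, centring gave 5285 higher and 4209 lower in LPS against Control, and 4310 and 5118 in LPS_NZM against LPS. It gave 3612 and 3190 in LPS_NZM against Control, and 4318 and 4907 of 13865 in Aged_NZM against Aged. Counts after centring, for the 10 genes and for the lists below, are to be read against these.

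Ccnd1 (ENSMUSG00000070348), which encodes cyclin D1, showed the largest changes of the 10 genes in LPS against Control, LPS_NZM against LPS and Aged_NZM against Aged. It stood at 211, 225 and 232 TPM in the LPS_NZM libraries, at 23.8, 22.2 and 24.5 TPM in LPS and at 328, 353 and 347 TPM in Control. The 3 groups did not overlap, and LPS_NZM lay between LPS and Control. The log2 change was -3.81 in LPS against Control (SE 0.05, adjusted p = 2.77e-12), which ranked 120th by size among the 14486 tested genes, and 3.19 in LPS_NZM against LPS (SE 0.05, adjusted p = 7.48e-12), ranked 192nd. In TPM the mean of LPS was 6.85% and that of LPS_NZM 65.0% of the Control mean. LPS_NZM stayed below Control, with a log2 change of -0.62 (SE 0.05, adjusted p = 4.55e-06). In BMSC, Ccnd1 stood at 58.7, 58.9 and 59.1 TPM in Aged_NZM and at 158, 155 and 153 TPM in Aged. The log2 change was -1.39 (SE 0.03, adjusted p = 1.9e-09), so that NZM went with a higher level in LPS-treated BMDM and a lower level in H2HO-treated BMSC.

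Ccnd2 (ENSMUSG00000000184), which encodes cyclin D2, fell with NZM in both cell types. It stood at 45.7, 46.1 and 47.2 TPM in LPS_NZM, at 79.1, 81.0 and 85 TPM in LPS and at 49.0, 56.2 and 52.9 TPM in Control. LPS was the highest of the BMDM groups, with a log2 change of 0.63 against Control (SE 0.05, adjusted p = 1.38e-06), and LPS_NZM against LPS gave -0.80 (SE 0.05, adjusted p = 2.06e-07). In BMSC the values were 52.2, 52.8 and 51.2 TPM in Aged_NZM and 102, 94.4 and 92.5 TPM in Aged, without overlap, for a log2 change of -0.87 (SE 0.04, adjusted p = 1.49e-07). Ccnd3 (ENSMUSG00000034165), which encodes cyclin D3, varied least among the D-type cyclins. It stood at 70.3, 70.2 and 69.5 TPM in LPS_NZM, at 86.2, 83.1 and 88.3 TPM in LPS and at 73.5, 71.3 and 74.5 TPM in Control. The log2 changes were 0.23 in LPS against Control (SE 0.03, adjusted p = 0.000119) and -0.29 in LPS_NZM against LPS (SE 0.03, adjusted p = 2.17e-05). Ccnd3 was the single one of the 10 genes that rose with NZM in BMSC, where it stood at 108, 102 and 102 TPM in Aged_NZM and at 93.8, 89.7 and 89.9 TPM in Aged (log2 change 0.19, SE 0.04, adjusted p = 0.00195).

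The mixture of D-type cyclin transcripts was also compared within libraries, since a share within a library does not depend on how the library was scaled. Ccnd1 made up 65.7% ± 1.00 of the summed TPM of the D-type cyclins in LPS_NZM, 12.3% ± 0.349 in LPS and 73.1% ± 0.339 in Control (SD, n = 3 each). Ccnd3 made up 20.7% ± 0.769 in LPS_NZM, 44.9% ± 0.564 in LPS and 15.6% ± 0.748 in Control, and Ccnd2 13.7% ± 0.258, 42.8% ± 0.858 and 11.2% ± 0.412. The LPS libraries thus held mostly Ccnd2 and Ccnd3, while LPS_NZM and Control held mostly Ccnd1. In BMSC the share of Ccnd1 was 27.4% ± 0.507 in Aged_NZM and 45.4% ± 0.605 in Aged, and that of Ccnd3 48.3% ± 0.848 in Aged_NZM and 26.6% ± 0.181 in Aged. No library of one group overlapped with a library of the group it was compared with for these shares of Ccnd1 or Ccnd3. The summed level was 339 ± 10.7 TPM in LPS_NZM, 191 ± 6.02 TPM in LPS and 469 ± 16.0 TPM in Control, and 215 ± 3.34 TPM in Aged_NZM and 343 ± 9.29 TPM in Aged.

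**Figure D2:**
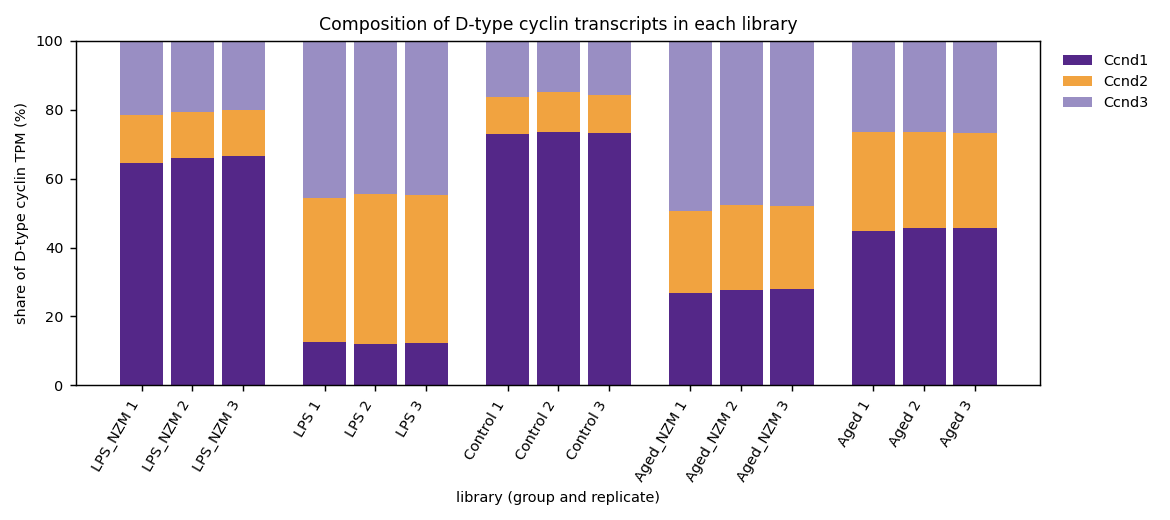
Share of Ccnd1, Ccnd2 and Ccnd3 in the summed TPM of the D-type cyclins (vertical axis, percent) in each of the 15 libraries (horizontal axis, by group and replicate). The Ccnd1 segment is shortest in LPS, at 11.9% to 12.6%, and shorter in Aged_NZM, at 26.9% to 27.8%, than in Aged, at 44.7% to 45.8%.

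Cdk4 (ENSMUSG00000006728) and Cdk6 (ENSMUSG00000040274) encode the partners of the D-type cyclins, and both fell with LPS and were higher in LPS_NZM than in LPS. Cdk4 stood at 159, 165 and 162 TPM in LPS_NZM, at 75.0, 75.2 and 74.5 TPM in LPS and at 149, 147 and 144 TPM in Control. Its log2 change was -0.96 in LPS against Control (SE 0.03, adjusted p = 5.63e-10) and 1.1 in LPS_NZM against LPS (SE 0.03, adjusted p = 2.02e-10). It was the single gene of the 10 to lie above Control in LPS_NZM, by a log2 change of 0.15 (SE 0.03, adjusted p = 0.00195). Cdk6 stood at 109, 109 and 121 TPM in LPS_NZM, at 47.6, 53.7 and 51.8 TPM in LPS and at 119, 152 and 138 TPM in Control, with log2 changes of -1.40 in LPS against Control (SE 0.08, adjusted p = 1.3e-07) and 1.13 in LPS_NZM against LPS (SE 0.08, adjusted p = 6.47e-07). LPS did not overlap with either of the other BMDM groups, whereas LPS_NZM and Control overlapped.

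The cell types differed in the balance of these kinases. In BMSC, Cdk4 was the most abundant of the 10 genes, at 326, 327 and 329 TPM in Aged_NZM and at 443, 437 and 436 TPM in Aged, and Cdk6 stood at 39.5, 40.5 and 39.9 TPM in Aged_NZM and at 61.4, 52.6 and 56.2 TPM in Aged. Both fell with NZM, by log2 changes of -0.42 for Cdk4 (SE 0.03, adjusted p = 1.22e-06) and -0.49 for Cdk6 (SE 0.06, adjusted p = 3.41e-05). The level of Cdk4 was 8.20 ± 0.0964 times that of Cdk6 in Aged_NZM and 7.76 ± 0.541 times in Aged, and the groups overlapped. In BMDM that ratio was 1.44 ± 0.0941 in LPS_NZM, 1.47 ± 0.0914 in LPS and 1.09 ± 0.144 in Control (SD, n = 3 each), a description for which no test between cell types was made, since they also differed in treatment.

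The promoter windows of Cdk4 and Cdk2 are shown because they were the ones in which a searched motif of a G1 regulator occurred near the annotated gene start. RefSeq windows on GRCm38.p6, of 250 bases before and 50 after a transcript start, existed for 6 of the 10 genes, while the deposited values belong to GRCm39. They were searched on both strands for the E-box CACGTG, which MYC proteins can bind, and for the E2F motif as TTTCCCGC, TTTCGCGC, TTTGCCGC or TTTGGCGC. The Cdk4 window (chr10:127063285-127063584, plus strand) held 4 E-boxes and no E2F motif, and the Cdk2 window (chr10:128705002-128705301, minus strand) held 1 E2F motif and no E-box. Capitals mark these matches, the strands read 5′ to 3′, and the E2F match of Cdk2 appears as the reverse complement.
Cdk4: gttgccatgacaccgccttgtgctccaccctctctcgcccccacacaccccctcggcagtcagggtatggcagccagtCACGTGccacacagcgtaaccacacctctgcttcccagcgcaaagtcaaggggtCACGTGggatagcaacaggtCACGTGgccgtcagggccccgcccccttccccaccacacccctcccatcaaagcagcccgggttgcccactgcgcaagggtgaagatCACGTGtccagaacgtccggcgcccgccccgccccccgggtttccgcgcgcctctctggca
Cdk2: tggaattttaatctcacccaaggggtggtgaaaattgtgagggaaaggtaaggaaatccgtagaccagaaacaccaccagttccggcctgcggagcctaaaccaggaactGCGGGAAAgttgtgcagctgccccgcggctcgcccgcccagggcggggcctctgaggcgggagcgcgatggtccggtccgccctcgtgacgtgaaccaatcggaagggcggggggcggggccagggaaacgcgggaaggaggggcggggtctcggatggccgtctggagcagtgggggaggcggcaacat
Among all 32851 windows of this length, 7.15% held an E-box and 0.0244% held at least 4, and 2.26% held the E2F motif. The 4 E-boxes of Cdk4 began 172, 118, 98 and 11 bases before the transcript start, and the E2F motif of Cdk2 began 140 bases before it. The Ccne1 window and both Ccnd3 windows held neither motif, nor did the E2f1 window, whose start lies 466 bases inside the gene as annotated by GENCODE. The Cdk6 window, 2408 bases inside the gene, held 1 E-box. A match says that the letters are present and nothing on binding, and Ccnd1, Ccnd2, Ccne2 and Rb1 had no window.

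The E-type cyclins parted in BMDM. Ccne2 (ENSMUSG00000028212) stood at 6.09, 6.74 and 6.88 TPM in LPS_NZM, at 2.46, 3.02 and 3.42 TPM in LPS and at 9.94, 11.7 and 9.06 TPM in Control, 3 groups without overlap. Its log2 change was -1.5 in LPS against Control (SE 0.12, adjusted p = 8.93e-07) and 0.94 in LPS_NZM against LPS (SE 0.12, adjusted p = 3.48e-05), on a scale where the added 1 TPM lessens the change of so low a gene. Ccne1 (ENSMUSG00000002068) stood at 11.1, 8.66 and 9.23 TPM in LPS_NZM, at 8.87, 9.19 and 8.74 TPM in LPS and at 10.8, 8.43 and 10.4 TPM in Control, and all 3 groups overlapped. It was the single one of the 10 genes without a call in LPS against Control (log2 change -0.13, 95% interval -0.37 to 0.11, adjusted p = 0.294) and in LPS_NZM against LPS (0.10, -0.14 to 0.34, adjusted p = 0.427). Relative to the median of all genes it rose with LPS by 0.42 (adjusted p = 0.00834) and fell in LPS_NZM against LPS by 0.37 (adjusted p = 0.0166). In BMSC both fell with NZM. Ccne1 stood at 19.7, 20.1 and 20.3 TPM in Aged_NZM and at 28.3, 28.7 and 28.5 TPM in Aged (log2 change -0.49, SE 0.04, adjusted p = 7.34e-06), and Ccne2 at 18.6, 20.0 and 20.2 TPM in Aged_NZM and at 26.2, 24.5 and 24.6 TPM in Aged (-0.34, SE 0.05, adjusted p = 0.000359).

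Cdk2 (ENSMUSG00000025358), the kinase partner of the E-type cyclins, stood at 26.0, 25.8 and 28.7 TPM in LPS_NZM, at 13.1, 13.6 and 12.8 TPM in LPS and at 46.8, 44.4 and 44.6 TPM in Control. It fell with LPS by 1.71 on the log2 scale (SE 0.05, adjusted p = 9.33e-10) and was higher in LPS_NZM than in LPS by 0.97 (SE 0.05, adjusted p = 6e-08). LPS_NZM reached 59.3% of the Control mean, the lowest such share among the 10 genes, and stayed below Control by a log2 change of -0.73 (SE 0.05, adjusted p = 2.45e-06). In BMSC, Cdk2 stood at 35.8, 36.6 and 42.0 TPM in Aged_NZM and at 47.4, 45.0 and 46.4 TPM in Aged, with a log2 change of -0.28 (SE 0.06, adjusted p = 0.00288). This small fall was not called relative to the median of all genes (-0.12, adjusted p = 0.123).

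E2f1 (ENSMUSG00000027490) encodes a factor that activates genes of DNA synthesis. It stood at 21.5, 22.8 and 24.9 TPM in LPS_NZM, at 9.43, 8.58 and 8.29 TPM in LPS and at 29.2, 30.9 and 34.8 TPM in Control. Its log2 change was -1.74 in LPS against Control (SE 0.08, adjusted p = 1.83e-08), the second in size among the 10 genes, and 1.30 in LPS_NZM against LPS (SE 0.08, adjusted p = 1.64e-07), again the second. In BMSC it stood at 33.0, 30.5 and 29.4 TPM in Aged_NZM and at 42.9, 43.7 and 45.0 TPM in Aged (log2 change -0.49, SE 0.05, adjusted p = 2.04e-05), without overlap.

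Rb1 (ENSMUSG00000022105), whose protein restrains E2F factors, went in the same direction as E2f1 in each comparison. It stood at 20.1, 17.1 and 22.5 TPM in LPS_NZM, at 10.1, 10.6 and 10.5 TPM in LPS and at 30.8, 35.6 and 32.8 TPM in Control, 3 groups without overlap. The log2 changes were -1.58 in LPS against Control (SE 0.09, adjusted p = 9.71e-08) and 0.87 in LPS_NZM against LPS (SE 0.09, adjusted p = 9.65e-06). In BMSC, Rb1 stood at 7.72, 8.06 and 7.62 TPM in Aged_NZM and at 10.1, 9.06 and 9.75 TPM in Aged. The log2 change was -0.27 (SE 0.07, adjusted p = 0.0054), and after centring it was -0.11 (adjusted p = 0.129). Within libraries the level of E2f1 was 3.98 ± 0.264 times that of Rb1 in Aged_NZM and 4.56 ± 0.294 times in Aged, against 1.17 ± 0.141 in LPS_NZM, 0.846 ± 0.0786 in LPS and 0.959 ± 0.0969 in Control (SD, n = 3 each). In this ratio Aged_NZM and Aged overlapped, as did LPS and Control, whereas LPS_NZM lay above LPS and Control.

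**Figure D3:**
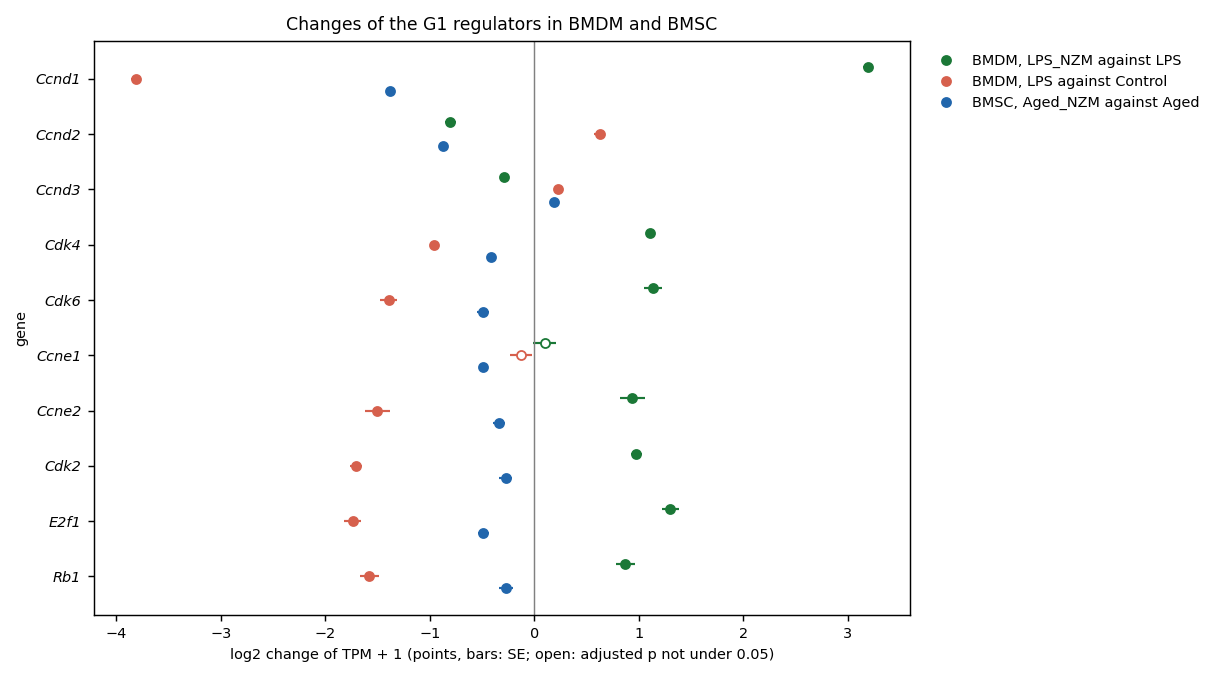
Log2 change of TPM + 1 (horizontal axis) of the 10 genes (vertical axis) with its SE as a bar, in LPS_NZM against LPS and LPS against Control in BMDM and in Aged_NZM against Aged in BMSC. Open points mark an adjusted p not under 0.05, which was the case for Ccne1 in both BMDM comparisons, and Ccnd1 spans the widest range, from -3.81 to 3.19.

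LPS_NZM against Control shows how far these genes lay from Control with both agents present. Of the 10 genes 7 were lower and 1 higher, where 47.7% of all tested genes were called (18.6% higher, 29.1% lower). The lower genes were Ccnd1, Ccnd2, Ccne2 (-0.56, adjusted p = 0.00292), Cdk2, Cdk6, E2f1 (-0.44, adjusted p = 0.00148) and Rb1 (-0.71, adjusted p = 0.000149). Mean levels in LPS_NZM were between 59.3% of Control for Cdk2 and 110.6% for Cdk4. For Ccnd3 the log2 change was -0.06 (95% interval -0.14 to 0.01, adjusted p = 0.166) and for Ccne1 -0.03 (-0.27 to 0.21, adjusted p = 0.84). The calls of Ccnd2 (-0.18, adjusted p = 0.0164) and Cdk6 (-0.26, adjusted p = 0.0268) were the weakest. That of Ccnd2 was lost when either Control replicate 2 or LPS_NZM replicate 1 was left out (adjusted p = 0.0559 and 0.0519) and after centring (adjusted p = 0.132). That of Cdk6 was lost when Control replicate 2 or 3 was left out (adjusted p = 0.0937 and 0.066), when LPS_NZM replicate 1 or 2 was left out (adjusted p = 0.082 and 0.0848), and after centring (adjusted p = 0.0838). This comparison shares libraries with the other BMDM comparisons, so their values are linked.

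The NZM change in BMSC (Aged_NZM against Aged) was then set against that in BMDM (LPS_NZM against LPS) by a test of the difference in a fit of all 15 libraries. The difference, BMSC minus BMDM, was called in 9 of the 10 genes, negative in 8 and positive in Ccnd3, where 72.0% of 16696 tested genes differed (17.2% higher, 54.8% lower). It was largest for Ccnd1, at -4.58 on the log2 scale (SE 0.06, adjusted p = 6.78e-16), from -1.39 in BMSC and 3.19 in BMDM. That of E2f1 was -1.79 (SE 0.10, adjusted p = 8.17e-10), of Cdk6 -1.63 (SE 0.11, adjusted p = 7.68e-09) and of Cdk4 -1.52 (SE 0.03, adjusted p = 4.33e-14). Ccne2, Cdk2 and Rb1 differed by -1.28, -1.25 and -1.14 (adjusted p = 7.56e-07, 4.68e-09 and 5.05e-07). For Ccnd3 the difference was 0.48 (SE 0.05, adjusted p = 4.1e-07).

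For Ccnd2 and Ccne1 this difference depended on the scale. Ccnd2 changed by -0.87 in BMSC and -0.80 in BMDM, a difference of -0.07 (95% interval -0.22 to 0.08, adjusted p = 0.394), which became 0.56 after centring (adjusted p = 1.7e-06). Ccne1 differed by -0.59 (SE 0.12, adjusted p = 0.000607) as deposited and by 0.04 after centring (adjusted p = 0.819). The median difference over all tested genes was -0.45, and after centring rises made up 58.2% of the calls instead of 23.9%. The other 8 genes kept the direction and the call of their difference after centring. The cell types also differed in the pretreatment, LPS in BMDM and H2HO in BMSC, so that cell type and pretreatment cannot be told apart.

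The other genes of the pathway were counted in 5 lists. The CDK inhibitors, which bind CDKs or their cyclin complexes, did not move together in BMDM. In LPS against Control 2 of 7 rose and 3 fell (median log2 change -0.26, against -0.48 for all tested genes). In LPS_NZM against LPS 1 rose and 2 fell (median -0.02, against 0.40). Of all tested genes 15.2% rose and 65.6% fell in the first comparison, and 60.4% rose and 16.9% fell in the second. Cdkn1a, which encodes p21, averaged 2184 ± 20.4 TPM in LPS_NZM, 2210.0 ± 49.5 TPM in LPS and 732 ± 22.5 TPM in Control. It rose with LPS by a log2 change of 1.59 (adjusted p = 1.51e-11). As deposited, it stood at -0.02 in LPS_NZM against LPS (adjusted p = 0.589), so it did not follow Ccnd1, Cdk4 and Cdk6. After centring 3 of the 7 rose and 1 fell in LPS against Control, and 1 rose and 4 fell in LPS_NZM against LPS. The median of the list in LPS_NZM against LPS was then -0.48. Cdkn1a is the middle gene of the list in that comparison, so relative to the median of all genes it was lower in LPS_NZM than in LPS. Cdkn2c, which encodes p18, fell with LPS (-1.46) and was higher with NZM (1.14), Cdkn2d, which encodes p19, rose with LPS (0.74) and fell with NZM (-0.85), and Cdkn1b, which encodes p27, fell in LPS_NZM against LPS (-0.60). Cdkn1c, which encodes p57, fell with LPS (-0.92), a call that was lost after centring (adjusted p = 0.053), as was that of Cdkn2b (-0.65 as deposited, adjusted p = 0.504 after centring).

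In BMSC, 5 of the 7 CDK inhibitors rose with NZM and 1 fell (median 0.59, against -0.18 for all tested genes, of which 21.6% rose), and the counts after centring were also 5 and 1. Cdkn2a, the locus of p16 and p19ARF, averaged 677 ± 20.9 TPM in Aged_NZM and 267 ± 9.12 TPM in Aged (log2 change 1.34, adjusted p = 5.29e-09), while it averaged between 8.26 and 10.5 TPM in the BMDM groups. Cdkn2b, which encodes p15, averaged 67.8 ± 0.898 TPM in Aged_NZM and 23.3 ± 1.91 TPM in Aged (1.5, adjusted p = 2.73e-08), and Cdkn2d rose by 0.81 (adjusted p = 2.35e-06). The single fall was that of Cdkn1a, at 49.6 ± 2.75 TPM in Aged_NZM and 204 ± 8.62 TPM in Aged (-2.02, adjusted p = 2.19e-09). The difference between the NZM changes, BMSC minus BMDM, was -2.0 for Cdkn1a (adjusted p = 7.2e-13), 1.42 for Cdkn2a (adjusted p = 9.18e-06) and 1.36 for Cdkn2b (adjusted p = 2.71e-06). The summed level of the 12 stromal markers was also higher in Aged_NZM, at 4313 to 4401 TPM against 1501 to 1568 TPM in Aged. Among them Lepr (0.213 against 0.603 TPM) and Vcam1 (26.6 against 28.3 TPM) alone had lower means in Aged_NZM. The part of stromal cells in the changes of the CDK inhibitors was not tested.

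Of 11 other E2F, DP and pocket protein genes 9 fell and 1 rose in LPS against Control (median -1.01, against -0.48 for all tested genes), where 65.6% of all tested genes fell. In LPS_NZM against LPS 8 rose and 2 fell (median 0.57, against 0.40), a share of rises near the 60.4% of all tested genes. In Aged_NZM against Aged 8 fell and 1 rose (median -0.38, against -0.18), where 48.9% of all tested genes fell. After centring these counts were 6 and 3, 5 and 2, and 7 and 3. E2f2, another activating E2F, averaged 5.51 ± 0.384 TPM in LPS_NZM, 1.85 ± 0.125 TPM in LPS and 10.2 ± 0.880 TPM in Control, with log2 changes of -1.97 with LPS and 1.19 in LPS_NZM against LPS. E2f6, a repressing E2F, changed by -1.47 with LPS and by 1.26 in LPS_NZM against LPS. The pocket proteins related to Rb1 parted. Rbl2, which encodes p130, averaged 19.2 ± 0.615 TPM in LPS_NZM, 8.29 ± 0.615 TPM in LPS and 24.1 ± 1.30 TPM in Control, with log2 changes of -1.44 with LPS and 1.12 in LPS_NZM against LPS. Rbl1, which encodes p107, averaged 12.6 ± 1.27 TPM in LPS_NZM, 30.1 ± 0.300 TPM in LPS and 27.9 ± 1.26 TPM in Control. It changed by 0.11 with LPS as deposited (adjusted p = 0.166) and fell in LPS_NZM against LPS (-1.20, adjusted p = 7.9e-08). After centring Rbl1 was among the 3 genes of the list that rose with LPS. In BMSC, Rbl1 fell (-0.71) and Rbl2 rose (0.44) with NZM, and E2f5 (-0.64), E2f4 (-0.61), both repressing E2F genes, and Tfdp1, which encodes a DP partner of E2F factors (-0.57), fell.

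Genes of CDK activation and of the turnover of G1 regulators fell in all 11 cases in LPS against Control (median -0.68, against -0.48 for all tested genes, of which 65.6% fell). In LPS_NZM against LPS 10 of 11 rose (median 0.48, against 0.40 for all tested genes, of which 60.4% rose). After centring 4 fell and 3 rose in the first comparison and 4 rose and 2 fell in the second. Those with the largest changes were Skp2, the F-box protein gene that targets p27 (-1.59 with LPS and 1.5 in LPS_NZM against LPS), Wee1, an inhibitory kinase of CDKs (-2.16 and 1.49), and Ccnh, the cyclin of the CDK-activating kinase (-1.25 and 1.34). In BMSC 7 of 11 fell and 1 rose with NZM (median -0.32, against -0.18 for all tested genes, of which 48.9% fell), and 6 fell and 2 rose after centring. Cdc25a, a phosphatase that activates CDK2, fell most there (-0.70, adjusted p = 2.8e-06), followed by Fbxw7, which targets cyclin E (-0.52), Ambra1, which targets D-type cyclins (-0.42), and Skp2 (-0.41).

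Of 20 S-phase genes known as E2F targets 19 fell and none rose in LPS against Control (median -1.58, against -0.48, with 65.6% of all tested genes lower), the exception being Tyms (0.05, adjusted p = 0.669). In LPS_NZM against LPS 19 rose and none fell (median 0.83, against 0.40, with 60.4% of all tested genes higher), and in Aged_NZM against Aged 16 fell and 3 rose (median -0.71, against -0.18, with 48.9% lower). After centring 18 fell and 1 rose, 15 rose and 2 fell, and 15 fell and 4 rose. Over all tested genes centring gave 4209 falls and 5285 rises, 4310 rises and 5118 falls, and 4907 falls and 4318 rises. Mcm2, a subunit of the replicative helicase, averaged 42.5 ± 0.609 TPM in LPS_NZM, 11.6 ± 0.595 TPM in LPS and 76.7 ± 4.75 TPM in Control, and 72.3 ± 0.947 TPM in Aged_NZM and 161 ± 6.52 TPM in Aged. Its log2 changes were -2.62 with LPS, 1.79 in LPS_NZM against LPS and -1.14 in Aged_NZM against Aged, and the difference between the NZM changes, BMSC minus BMDM, was -2.93 (adjusted p = 8.9e-14). Cdt1, a licensing factor, changed by -2.43, 1.59 and -1.28 in the same comparisons, and Mcm3 and Mcm7, of the same helicase as Mcm2, changed by -2.33, 1.45 and -0.99 and by -2.36, 1.38 and -0.97. The 3 risers in BMSC were Ccna2, which encodes cyclin A2 (0.62), Tyms (0.26) and Tk1 (0.21), the last 2 enzymes of thymidylate synthesis. The call of Tk1 was weak and was lost without Aged replicate 3 (0.15, adjusted p = 0.113), Aged_NZM replicate 1 (0.14, adjusted p = 0.112) or Aged_NZM replicate 2 (adjusted p = 0.0625), with no filter on low values (adjusted p = 0.104) and with no mean-variance trend (adjusted p = 0.0707).

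Genes of G2 and mitosis did not follow the S-phase genes in BMSC. There 10 of 12 rose with NZM and 1 fell (median 0.49, against -0.18 for all tested genes, of which 21.6% rose), and after centring 11 rose and 1 fell. Ccnb2, which encodes cyclin B2, averaged 28.2 ± 3.51 TPM in Aged_NZM and 9.79 ± 1.33 TPM in Aged (log2 change 1.44, adjusted p = 1.92e-06), and Mki67, the gene of the proliferation marker Ki-67, averaged 43.9 ± 2.71 TPM in Aged_NZM and 22 ± 1.11 TPM in Aged (0.96, adjusted p = 4.98e-07). Ccnb1 and Plk1, a mitotic kinase, rose by 0.85 and 0.69, and Mybl2, a transcription factor active from S phase, fell by 0.36. In BMDM 10 of 12 fell in LPS against Control (median -0.57, against -0.48 for all tested genes, of which 65.6% fell). In LPS_NZM against LPS 9 rose and 1 fell (median 0.38, against 0.40 for all tested genes, of which 60.4% rose). Relative to the median of all genes, however, 4 rose and 1 fell in the first comparison and 2 rose and 4 fell in the second. Mki67 averaged 21.5 ± 0.968 TPM in LPS_NZM, 24.3 ± 2.10 TPM in LPS and 24.2 ± 1.26 TPM in Control, with a log2 change of -0.17 in LPS_NZM against LPS (adjusted p = 0.045). That call was lost under 8 alternatives, but not with median centring or quantile normalization. Leaving out LPS replicate 2 gave -0.10 (adjusted p = 0.174), and leaving out LPS_NZM replicate 1 gave -0.14 (adjusted p = 0.135). Mybl2 changed most, by -0.90 with LPS and 0.71 in LPS_NZM against LPS.

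**Figure D4:**
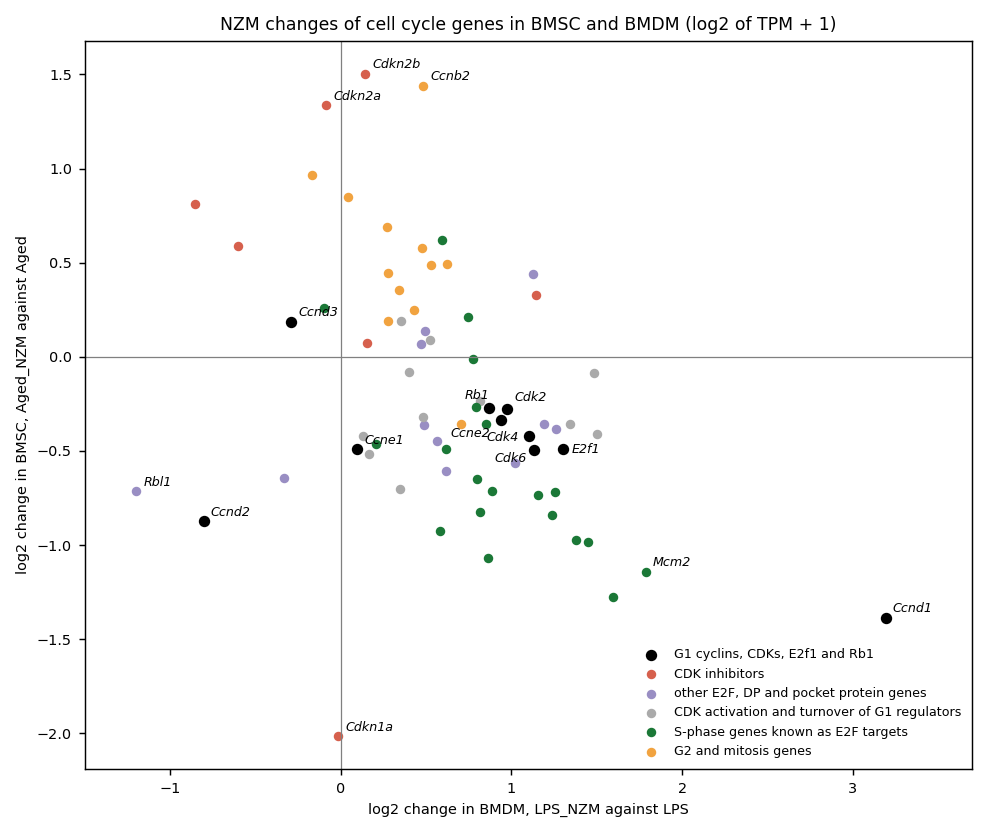
Log2 change of TPM + 1 in Aged_NZM against Aged in BMSC (vertical axis) and in LPS_NZM against LPS in BMDM (horizontal axis), for the 10 G1 genes (black) and the 5 lists of other cell cycle genes. Ccnd1 lies farthest to the lower right, at -1.39 in BMSC and 3.19 in BMDM, and the G2 and mitosis genes lie mostly above the horizontal zero line, where 10 of 12 rose in BMSC.

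Over all 15 libraries the genes with the most similar patterns were found by Pearson's r of log2(TPM + 1), as a description over libraries that share 5 groups and 2 cell types. For Ccnd1 they were Slc35b4 (0.996), Tbc1d5 (0.992) and Zfp91 (0.991), for Cdk4 Dut, Snrnp70 and Mrpl49 (0.996 or above), for E2f1 Hsd3b7, Pip4p2 and Elovl5, and for Rb1 Acap2, E2f2 and Wwp2. Among the 10 genes themselves the closest pairs were Cdk6 with Rb1 (0.970) and Cdk2 with E2f1 (0.969).

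Some of the 10 genes overlap a neighbour on the opposite strand, and the sources used here do not give whether reads were assigned by strand. In the GENCODE annotation 23.4% of the exonic bases of Ccnd1 are shared with the gene listed as LTO1. Of those of Cdk4, 19.7% are shared with Tspan31, and of those of Ccne2, 17.4% with Ints8. Rb1 shares 8.11% with Rcbtb2 and 6.78% with Lpar6. These reached 130.51 and 37.15 TPM in a library, where Rb1 reached 35.6 TPM, and their part in the values of Rb1 was not tested. LTO1 averaged 39.0 ± 3.07 TPM in LPS_NZM, 28.4 ± 2.90 TPM in LPS and 42.7 ± 3.02 TPM in Control, a narrower range than that of Ccnd1, and 34.5 ± 2.64 TPM in Aged_NZM and 48.2 ± 1.28 TPM in Aged, where Ccnd1 was also lower in Aged_NZM. Ints8 averaged 25.5 ± 2.12 TPM in LPS_NZM, 23.0 ± 1.35 TPM in LPS and 28.1 ± 0.579 TPM in Control, and 41.5 ± 1.76 TPM in Aged_NZM and 51.8 ± 2.5 TPM in Aged. Ints8 was thus above Ccne2 in level and lower in Aged_NZM than in Aged, as Ccne2 was, and its part in the values of Ccne2 was not tested. Tspan31 averaged 119.1 ± 3.07, 110.6 ± 4.48 and 115 ± 3.0 TPM in LPS_NZM, LPS and Control. It averaged 187 ± 1.67 TPM in Aged_NZM and 152 ± 7.25 TPM in Aged, where Cdk4 went the other way. In LPS, Cdk4 averaged 74.9 TPM, below Tspan31. The part of LTO1 in the values of Ccnd1, and of Tspan31 in those of Cdk4, was not tested. The pseudogene Ccnd3-ps was at or under 0.17 TPM in all 15 libraries.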

How the data were processed

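TPM values of all 15 libraries came from 1 table that the authors deposited. Per the submitters' processing notes, the build was GRCm39 and the tools were RSEM, StringTie, HISAT2 and fastp, whose versions and roles, like the annotation, are not given in the sources used here. Symbols came from a GENCODE name table of an older build, which matched 52072 of 56979 identifiers. In R 4.3.3, limma 3.58.1 was run on log2(TPM + 1) with a mean-variance trend and two-sided tests, while figures were drawn with Python 3.11.15. The 9 BMDM libraries and the 6 BMSC libraries were fitted apart, and all 15 together for the difference between their NZM changes. A gene was tested when it reached 1 TPM in at least 3 fitted libraries. Benjamini-Hochberg adjustment ran over all tested genes. Depth is unknown, so no counting interval is given. The labels do not say whether the 3 libraries of a group are separate animals or cultures, so p-values measure only the spread between them, which may be technical.

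The 10 genes and the lists were chosen with earlier results of these data known. All 10 genes are named in each comparison, and of each list called genes among the 4 with the largest changes. Exceptions to a list's direction, Rbl1 with LPS, Mki67 in BMDM, Il1b and the overlapping neighbours were named after their values were seen, as were the genes whose promoter is printed. Alternatives were another pseudocount, other filters, median centring, quantile normalization, no trend, a replicate block, all 15 libraries in a fit, and leaving out each library. Tests on simulated data with 200 changed genes recovered 79.2% to 92.9% of log2 changes of 1 and 61.6% to 74.2% of those of 0.5 across the 5 comparisons, with 1.9% to 7.5% of calls false. The simulated data held no shift of the TPM scale and far fewer changed genes than were called here. These rates therefore do not cover calls made under such a shift.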

Additional observations from a re-analysis of the deposited data

Results flagged for a closer look

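The response to NZM differed between BMSC and BMDM, by a test of the difference in a fit of all 15 libraries with limma, in 9 of the 10 genes. The difference on the log2 scale, BMSC (Aged_NZM against Aged) minus BMDM (LPS_NZM against LPS), was -4.58 for Ccnd1, 0.48 for Ccnd3, -0.59 for Ccne1, -1.28 for Ccne2, -1.25 for Cdk2, -1.52 for Cdk4, -1.63 for Cdk6, -1.79 for E2f1 and -1.14 for Rb1, with adjusted p from 6.78e-16 to 0.000607. Such a difference was called in 72.0% of all tested genes, and that of Ccne1 was 0.04 after median centring (adjusted p = 0.819). The sizes of the others also moved with the scale, that of Rb1 from -1.24 to -0.52 over the alternatives. Groups of 3 libraries are too small for a check of single outlying libraries.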

How the results depend on the processing

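Across the alternatives, the number of the 10 genes called stayed within 9 to 10 in LPS against Control, 9 to 10 in LPS_NZM against LPS, 6 to 8 in LPS_NZM against Control, 8 to 10 in Aged_NZM against Aged, and at 9 for the difference between the NZM changes. The total of called genes stayed within 1.5 times that reported, but in 3 comparisons its split did not. With median centring, higher calls in LPS against Control numbered 5285 in place of 2203 and lower ones 4209 in place of 9502, and in LPS_NZM against LPS higher calls numbered 4310 in place of 8752 and lower ones 5118 in place of 2445. For the difference between the NZM changes, higher calls numbered 6663 in place of 2876 and lower ones 4786 in place of 9144. Of 870 values of single genes under an alternative, 843 kept their direction and their side of the threshold, 13 lost their call and 14 turned in sign.

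Ccne1 turned in LPS against Control to 0.42 with median centring and 0.45 with quantile normalization, in LPS_NZM against LPS to -0.37 and -0.38, and in the difference to 0.036 and 0.038. In LPS_NZM against Control it turned to 0.053 and 0.065 under these scalings, to 0.032 without Control replicate 1, 0.009 without Control replicate 3 and 0.039 without LPS_NZM replicate 2, within a range of -0.131 to 0.039 over the libraries left out. Ccnd3 turned there to 0.021 with median centring. Ccnd2 turned in the difference to 0.555 with median centring and 0.27 with quantile normalization. The cause was not tested. Calls were lost for Ccnd2 and Cdk6 in LPS_NZM against Control and, under the 2 scalings, for Cdk2 (-0.12 and -0.08), and with centring for Rb1 (-0.11), in Aged_NZM against Aged.

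Same-numbered libraries did not deviate together (correlations of deviations from -0.0509 to 0.13), so the numbers are not taken as pairs. A replicate block gave the same counts of called genes, namely 9, 9, 8, 10 and 9. Depth is unknown, which limits what can be said of the lowest genes.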
